A study of Mus musculus with 39 samples.

Results

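Transcript levels of 9 transcription factors that set the identity and activation state of microglia, the resident macrophages of the brain, were described in CD11b+ cells of WT and 5XFAD mice after chronic intermittent hypoxia (CIH) or normoxia (NX). The factors were Sall1, Irf8, Runx1, Mitf, Tfeb, Tfe3, Bhlhe40, Bhlhe41 and Nr1h3, and they were taken by gene symbol from the 46333 genes of the female and the 54532 genes of the male count table. The members were picked as a named set of known regulators, with earlier results of these data known, and all 9 passed the filter on low counts in every comparison. 5XFAD mice carry human transgenes with familial Alzheimer's disease mutations under a neuronal promoter, and the colony came from a cross of C57BL/6J females with 5XFAD males on a B6SJL background. Exposure began at 4 months of age, with alternation between 6.5% and 21% O2 in 90 s intervals for 8 h of the sleep phase per the labels, while the study's methods give a lower O2 level and a longer daily exposure, and NX mice stayed at 21% O2. Females were 10 months old at harvest and males 8 months old, so sex and age cannot be told apart and no test crossed them. Cells were taken from the cerebrum with magnetic beads and sequenced in bulk, giving 39 libraries: 4 of F WT NX and 5 of each of F WT CIH, F 5XFAD NX, F 5XFAD CIH, M WT NX, M WT CIH, M 5XFAD NX and M 5XFAD CIH.

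These factors act at different layers of microglial regulation. Sall1 is a zinc finger factor that keeps microglia in their resident state, and Irf8 and Runx1 partner with the myeloid pioneer factor PU.1 during microglial development. Mitf, Tfeb and Tfe3 belong to the MiT/TFE family, which binds E-box elements of lysosomal and autophagy genes and is held in the cytosol by mTORC1 phosphorylation, so that transcript levels report supply and not nuclear activity. Bhlhe40 and Bhlhe41 are related basic helix-loop-helix repressors of the circadian clock and of macrophage state, and Nr1h3 encodes LXRα, the oxysterol receptor that drives cholesterol efflux genes. In bulk RNA, fewer cells of a type and less RNA per cell cannot be told apart.

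Total counts were 14731683 to 25906121 in the 19 female and 13457293 to 23095627 in the 20 male libraries. All 10 microglial markers were detected in every library, with summed levels of 24350 to 37730 CPM (counts scaled to a common library total with TMM factors), against 10.8 to 1274 CPM for 9 neutrophil markers and 71.7 to 354 CPM for 8 border macrophage markers. Border macrophage markers were at 71.7 to 168 CPM in 5XFAD and 151 to 354 CPM in WT females, and at 104 to 195 CPM in 5XFAD and 158 to 344 CPM in WT males. Summed astrocyte markers were at 224 to 672 CPM in 5XFAD CIH and 125 to 371 CPM in 5XFAD NX against 157 to 197 CPM in WT CIH and 169 to 226.5 CPM in WT NX females, and at 222 to 632 CPM and 377 to 1031 CPM against 158 to 232 CPM and 134 to 187 CPM in males. Of the 8 astrocyte markers, 1 was called higher and 1 lower in 5XFAD in NX females, 4 and 1 in CIH females, 4 and 1 in NX males and 2 and 2 in CIH males. Summed endothelial markers did not overlap in CIH females (169 to 253 CPM in 5XFAD, 58.6 to 148 CPM in WT; 2 of 8 called higher and 2 lower), 3 of 8 oligodendrocyte markers were higher and 0 lower in NX males, and 3 neutrophil markers were lower and 0 higher in both CIH comparisons. Of the 10 microglial markers, 1 was called higher and 4 lower in NX females and 2 and 5 in CIH females. In males these counts were 1 and 5 after NX and 3 and 4 after CIH. Of 5 lymphocyte markers tested in CIH males, 3 were called higher and 0 lower. By contrast, 1 of 3 lymphocyte markers tested in CIH females and 1 of 4 in NX males were lower and 0 higher. The part of these markers in the genotype differences below was not tested. The library labelled F 5XFAD NX 4 lay at 42.9 on the first principal component of the female libraries, beside the WT libraries and apart from the other 4 of its group. On the second component it lay at 65.9, above every other female library (at most 41.7), with WT females at −47.7 to 29.2. Its levels increased with gene length (a slope of 0.163 log2 CPM per doubling of length, against −0.055 to 0 in the other 4), its TMM factor was 1.271 and its summed microglial markers were the lowest of all libraries (24350 CPM). F WT NX 1 lay at 27.6 on that component, against 45.3 to 51.1 in the other 3 of its group, with more monocyte (77.1 against at most 44.0 CPM) and endothelial (157 against 81.2 to 112 CPM) marker signal. M 5XFAD NX 4 and M 5XFAD NX 5 stood apart on the first 2 components of the male libraries. They lay at 2.19 and 3.91 on the first, against −80.0 to −78.9 in the other 3 of their group and 12.8 to 59.2 in M WT NX, and at 72.5 and 73.1 on the second, also with levels that increased with gene length (slopes of 0.08 and 0.086, against −0.066 to −0.02 in the other 3). The genotype differences after NX are therefore also given without these libraries.

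Per length, Sall1 and Irf8 were the most abundant of the 9 factors in all groups. As FPKM, which are scaled to gene length and library total, Sall1 stood at 269.5 ± 31.8 (SD, n = 4) and Irf8 at 196.5 ± 10.9 in F WT NX, and their libraries did not overlap. This order was inverted in 5XFAD CIH, with Irf8 at 227 and Sall1 at 148 FPKM in females and Irf8 at 130 and Sall1 at 102 FPKM in males, again without overlap, while in 5XFAD NX the ranges of both genes overlapped in both sexes. Tfe3 and Bhlhe41 followed at 67.6 and 45.3 FPKM in F WT NX and at 25.6 and 24.8 FPKM in M WT NX, where their ranges overlapped. Runx1, Tfeb and Mitf lay between 6.28 and 27.2 FPKM in WT NX of both sexes. Bhlhe40 (3.94 FPKM in females and 0.818 in males) and Nr1h3 (1.33 and 0.934 FPKM) were lowest in WT NX, with overlapping ranges. The female mean of Bhlhe40 rests on F WT NX 1 (10.9 FPKM), the other 3 libraries lying at 1.21 to 2.15 FPKM. In 5XFAD, Bhlhe40 stood between 17.8 and 30.2 FPKM as group means, at a level that overlapped those of Runx1 or Tfe3. Gene lengths differ between the 2 tables, which were annotated separately, so FPKM were compared only within a sex. Irf8 was given 3115 bases in the female and 7055 in the male table, and Sall1 5271 and 5265. The order of these 2 genes in 5XFAD CIH females depends on the length used. As mean CPM, Sall1 (821.5) stood above Irf8 (747) there.

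**Figure D1:**
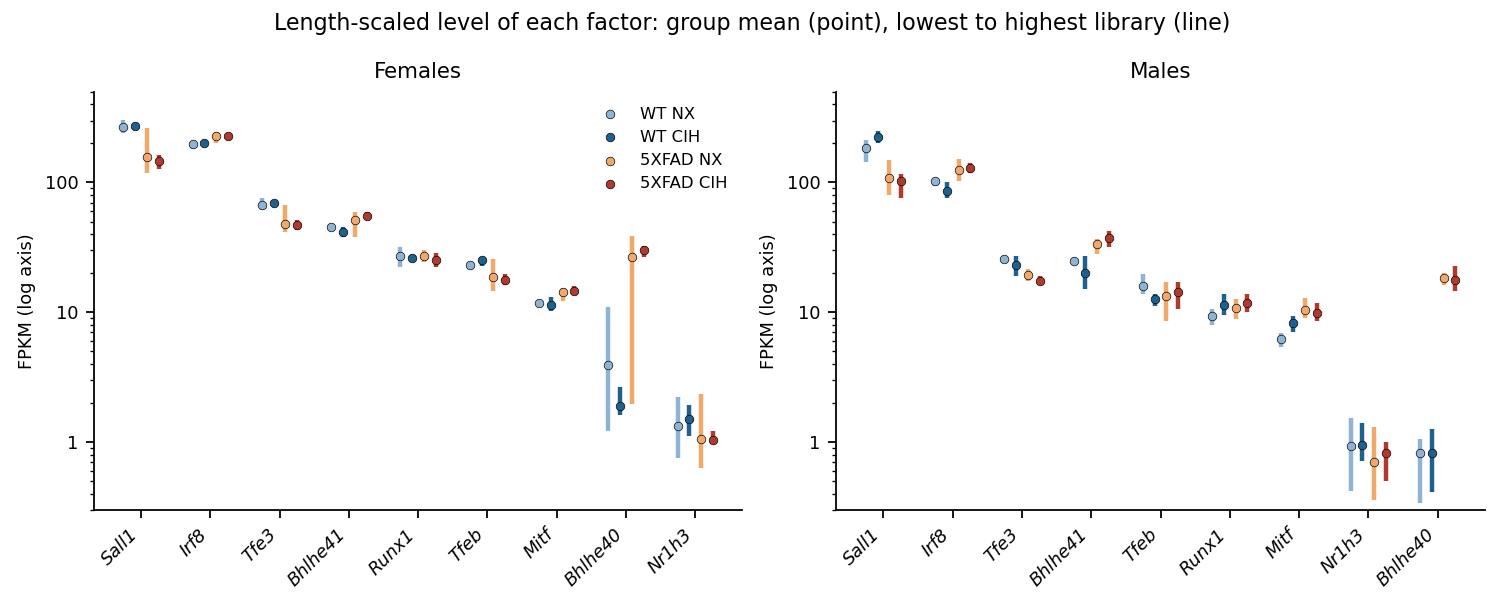
FPKM of the 9 factors (y axis, log scale) in females and males, with the genes ordered by their mean in WT NX; points are group means over 4 or 5 libraries and lines run from the lowest to the highest library. Irf8 lies above Sall1 in 5XFAD CIH of both sexes, and Bhlhe40 moves from the bottom of the order in WT to the middle in 5XFAD, except for 1 library of F 5XFAD NX.

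The genes are shown with the sequence just upstream of their start where a promoter helps to place them. Of the 9 factors, 8 have promoters in RefSeq's table (18 in all, build GRCm38.p6). The 250 bases before each start were searched on both strands for CACGTG (E-box), TCACGTGA (the CLEAR element of lysosomal genes), TGTGGTT (RUNX), GAGGAAGT (PU.1 and other ETS factors), the interferon-stimulated response element, TGANTCA (AP-1), ACGTG (HIF, which is part of CACGTG) and the LXR element DR4. Shown are 3 of the promoters, cut where an annotated exon begins, with matches in capitals. They were chosen because Sall1 and Irf8 are the most abundant factors and differed between the genotypes in opposite directions, and Mitf was the 1 MiT/TFE factor among the 9 with higher values in 5XFAD in all genotype comparisons.
Sall1 promoter, chr8:89044163-89044412, minus strand: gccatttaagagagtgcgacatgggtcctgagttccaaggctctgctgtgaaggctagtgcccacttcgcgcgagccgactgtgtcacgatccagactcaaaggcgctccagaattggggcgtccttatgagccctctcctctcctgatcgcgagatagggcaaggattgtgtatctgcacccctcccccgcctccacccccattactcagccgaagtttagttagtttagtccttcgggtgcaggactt
Irf8 promoter, chr8:120736108-120736357, plus strand: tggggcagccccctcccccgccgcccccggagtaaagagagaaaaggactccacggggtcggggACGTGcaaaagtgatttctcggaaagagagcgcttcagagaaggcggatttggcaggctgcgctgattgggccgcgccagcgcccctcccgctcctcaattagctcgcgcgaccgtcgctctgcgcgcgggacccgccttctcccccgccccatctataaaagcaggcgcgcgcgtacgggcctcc
Mitf promoter, chr6:97806808-97807051, plus strand: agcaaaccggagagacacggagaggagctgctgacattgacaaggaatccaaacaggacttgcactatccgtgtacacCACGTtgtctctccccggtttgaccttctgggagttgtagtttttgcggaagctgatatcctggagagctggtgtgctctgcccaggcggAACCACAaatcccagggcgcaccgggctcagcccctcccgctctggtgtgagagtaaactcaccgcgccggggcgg
None of these letters occurs in the Sall1 window. The Irf8 window holds ACGTG at positions −186 to −182 from the start, a motif found in 16.6% of all 32851 promoters. The Mitf window holds ACGTG on the minus strand (−172 to −168) and the RUNX letters on the minus strand (−82 to −76), the latter in 4.4% of all promoters. Among the other members, the Bhlhe41 promoter holds CACGTG (−153 to −148; 6.02% of all promoters) and 1 of the Runx1 windows holds TCACGTGA (−72 to −65; 0.785%), in a stretch that lies within an annotated exon. A match of letters shows neither a bound site nor a cause, and reads were counted per gene, so use of one promoter over another was not measured.

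Sall1 (GRCm38, chromosome 8, 89027235 to 89044162) had lower values in 5XFAD than in WT in all 4 genotype comparisons. In NX females, Sall1 was at 1237, 1544, 1222 and 1468 CPM in WT and at 751, 724, 916, 1094 and 744 CPM in 5XFAD. In CIH females, Sall1 was at 1415, 1342, 1272, 1403 and 1245 CPM in WT and at 710.2, 907, 888, 783 and 819.9 CPM in 5XFAD. The WT and 5XFAD libraries did not overlap in either treatment, and F 5XFAD NX 4, the highest of its group, stood closest to WT. As FPKM, which lack TMM scaling, Sall1 in that library (264) lay among WT NX (241 to 302). In NX males, Sall1 was at 1094, 1040.0, 1129, 767 and 839 CPM in WT and at 499, 442, 434, 777 and 686 CPM in 5XFAD. In CIH males, Sall1 was at 1341, 1247, 1219, 1134 and 1069 CPM in WT and at 585, 595, 619, 505 and 409 CPM in 5XFAD. The CIH males were fully separate, while among NX males M 5XFAD NX 4 exceeded M WT NX 4. Sall1 was lower in 5XFAD after NX (log2FC −0.65 ± 0.181, FDR 0.0449 in females; log2FC −0.77 ± 0.185, FDR 0.0117 in males) and after CIH (log2FC −0.70 ± 0.0659, FDR 1.59e-06 in females; log2FC −1.11 ± 0.121, FDR 4.29e-06 in males). The call in NX females was lost in 8 of 9 fits that left out 1 library (FDR up to 0.113) and with library size alone (FDR 0.0704), and became stronger without F WT NX 1 and F 5XFAD NX 4 (log2FC −0.87, FDR 0.000387). In NX males the difference was −1.07 (FDR 2.36e-05) without M 5XFAD NX 4 and M 5XFAD NX 5. The ± values here and below are SEs of log2FC from edgeR's quasi-likelihood fit, log2FC is 5XFAD over WT, and FDR is the adjusted p over all genes tested.

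Irf8 (chromosome 8, 120736358 to 120756694) had higher values in 5XFAD in all 4 genotype comparisons and passed the test after CIH. In CIH females, Irf8 was at 603, 577, 538, 606 and 578 CPM in WT and at 742, 794, 718, 719 and 763 CPM in 5XFAD. In CIH males, Irf8 was at 725, 629, 602, 582 and 543 CPM in WT and at 1002, 828, 939, 948 and 895 CPM in 5XFAD. The libraries of both genotypes were fully separate in both sexes (log2FC 0.37 ± 0.0505, FDR 4.7e-05 in females; log2FC 0.61 ± 0.0968, FDR 0.000127 in males). Under library size alone these were 0.17 (FDR 0.0078) and 0.24 (FDR 0.0338), and those after NX 0.21 and 0.10. After NX, Irf8 was at 549, 598, 606 and 603 CPM in WT and 875, 780.0, 807, 491 and 831 CPM in 5XFAD females. After NX, Irf8 was at 669, 758, 726, 699 and 766 CPM in WT and 975, 868, 1097, 722 and 779 CPM in 5XFAD males. Here F 5XFAD NX 4 fell below all WT females and M 5XFAD NX 4 lay within the WT range. The NX differences missed the threshold (log2FC 0.38 ± 0.133, FDR 0.0798; log2FC 0.31 ± 0.124, FDR 0.114) and passed it without F WT NX 1 and F 5XFAD NX 4 (log2FC 0.43, FDR 0.00227) and without M 5XFAD NX 4 and M 5XFAD NX 5 (log2FC 0.45, FDR 0.0019). They also passed with all libraries in DESeq2 (FDR 0.0189 and 0.0458) and in a fit of all 4 groups (FDR 0.00638 and 0.0387).

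Runx1 (chromosome 16, 92601466 to 92826149), the Runt factor of early myeloid development, showed small differences between the genotypes. It ranged from 136 to 208 CPM over the female and from 97.1 to 168 CPM over the male libraries, and WT and 5XFAD overlapped in every comparison. It passed the test in CIH females alone (log2FC 0.16 ± 0.0613, FDR 0.0425), and that call was lost in 8 of 10 fits that left out 1 library, with the likelihood ratio test, with all 4 groups in one fit and without a filter, while scaling by library size alone turned its sign (−0.03). The other 3 genotype comparisons gave 0.15, 0.21 and 0.06, with 95% intervals of −0.09 to 0.39, −0.07 to 0.48 and −0.21 to 0.32. Removal of the length trend gave 0.35 (FDR 0.0169) in CIH males. Runx1 was at 0.20 in NX females and 0.06 in NX males without the libraries that stand apart.

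**Figure D2:**
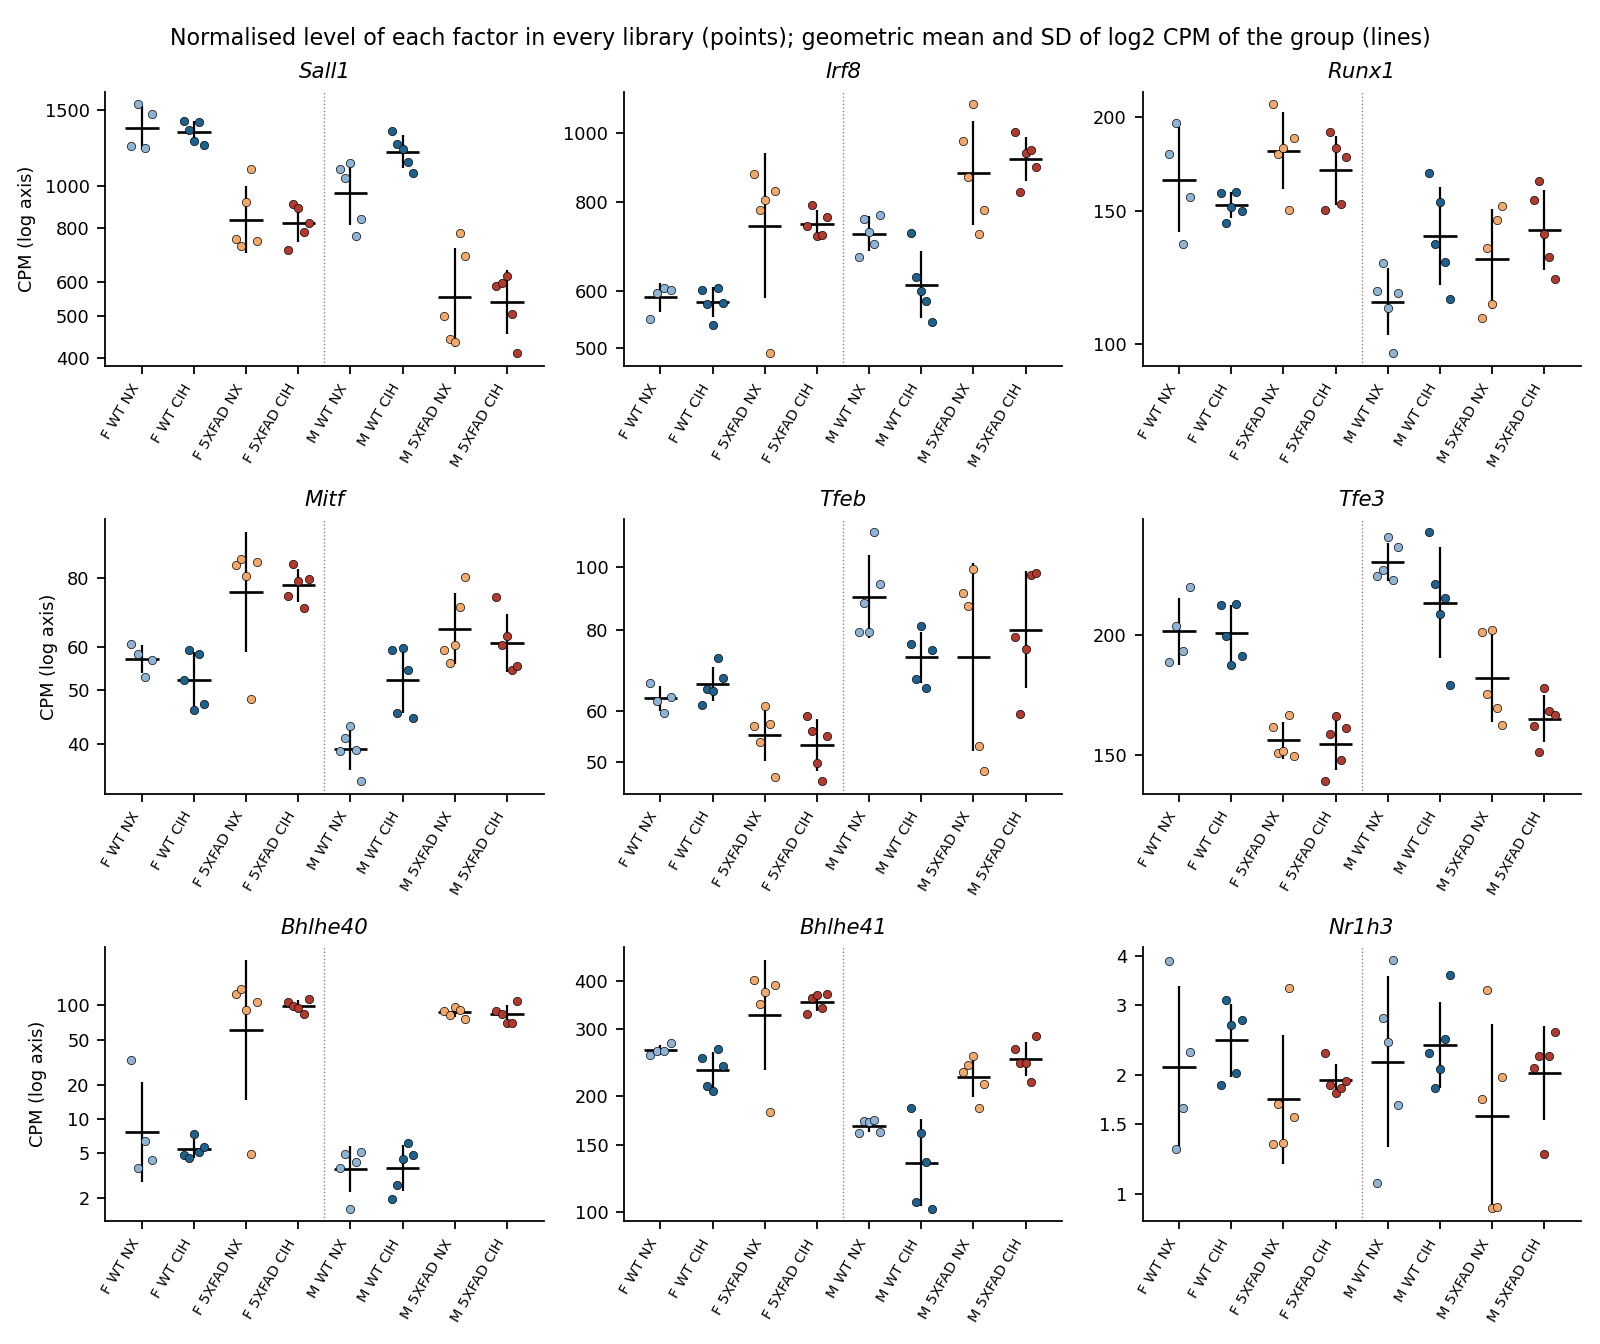
CPM of each factor (y axis, log scale, 1 panel per gene) in all 39 libraries by group; points are libraries, horizontal lines geometric means and vertical lines SDs of log2 CPM. Sall1 and Tfe3 sit lower and Bhlhe40 sits higher in 5XFAD than in WT in both sexes, with F 5XFAD NX 4 (4.86 CPM) among the WT levels of Bhlhe40.

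Mitf, Tfeb and Tfe3 did not move together. Mitf had higher and Tfe3 lower values in 5XFAD in all 4 genotype comparisons, and the sign of Tfeb differed among them. Mitf (chromosome 6, 97807052 to 98021349), the melanocyte and osteoclast factor of the family, was at 52.2, 59.3, 46, 58.3 and 47.2 CPM in WT and 74.5, 85, 79.3, 70.8 and 79.8 CPM in 5XFAD females after CIH. In NX males, Mitf was at 38.8, 40.9, 43.1, 38.9 and 34.2 CPM in WT and 59.2, 56.1, 60.5, 70.8 and 80.4 CPM in 5XFAD. Both comparisons were free of overlap (log2FC 0.57 ± 0.0743, FDR 3.09e-05; log2FC 0.75 ± 0.126, FDR 0.00116). Without M 5XFAD NX 4 and M 5XFAD NX 5 the difference in NX males was 0.59 (FDR 0.000711). In NX females, Mitf was at 60.7, 58.2, 52.9 and 56.7 CPM in WT and 84.8, 87, 80.8, 48.2 and 85.7 CPM in 5XFAD, where F 5XFAD NX 4 was the lowest of all (log2FC 0.45 ± 0.13, FDR 0.0476; log2FC 0.58, FDR 0.000194 without F WT NX 1 and F 5XFAD NX 4). The call with all libraries was lost in 8 of 9 fits that left out 1 library, the exception being F 5XFAD NX 4, and with library size alone, no filter or the length trend removed (FDR 0.0533 to 0.0727). In CIH males, Mitf was at 59.3, 45.4, 59.8, 54.6 and 44.6 CPM in WT and 74.1, 60.4, 62.7, 54.4 and 55.4 CPM in 5XFAD, and the difference missed the threshold (log2FC 0.25 ± 0.12, FDR 0.0967), which it passed with the length trend removed (log2FC 0.38, FDR 0.0113). The genotype difference of Mitf in males was thus 0.75 after NX and 0.25 after CIH, and the test of that change did not pass over all genes (interaction −0.51, unadjusted p = 0.00714, FDR 0.121; edgeR quasi-likelihood).

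Tfe3 (chromosome X, 7762560 to 7775202), a ubiquitous activator of lysosomal genes, was lower in 5XFAD by a similar amount in all 4 comparisons. After NX, Tfe3 was at 188, 204, 192 and 224 CPM in WT and 160.3, 151, 151, 165 and 149.6 CPM in 5XFAD females. After CIH, Tfe3 was at 215, 199.6, 186, 215 and 190.0 CPM in WT and 141, 157, 165, 148 and 159.8 CPM in 5XFAD females. The females were separate in both treatments on the CPM scale, where F 5XFAD NX 4 was the highest of its group, while as FPKM that library (67.5) lay among WT NX (61.9 to 75.6) (log2FC −0.35 ± 0.0935, FDR 0.0419; log2FC −0.38 ± 0.0543, FDR 6.48e-05). In NX males, Tfe3 was at 231, 234, 253, 228 and 247 CPM in WT and 201, 173, 203, 168 and 161 CPM in 5XFAD. In CIH males, Tfe3 was at 256, 226, 210.1, 218 and 177 CPM in WT and 161, 151, 176, 166 and 165 CPM in 5XFAD. The males were also separate in both treatments (log2FC −0.38 ± 0.102, FDR 0.0198; log2FC −0.38 ± 0.099, FDR 0.00575), but removal of each library's trend on gene length ended both calls (log2FC −0.40, FDR 0.0854 after NX and −0.13, FDR 0.344 after CIH). Without the libraries that stand apart, Tfe3 was at −0.46 (FDR 0.00109) in NX females and −0.30 (FDR 0.0185) in NX males. In NX females the call was lost in 8 of 9 fits that left out 1 library, with library size alone (FDR 0.0668) and without a filter (FDR 0.112), and in NX males it was lost in 3 of 10, without M 5XFAD NX 2, M WT NX 3 or M WT NX 5 (FDR 0.0506 to 0.0511).

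Tfeb (chromosome 17, 47737030 to 47792419), the family member most studied in lysosomal biogenesis, was lower in 5XFAD females after CIH, at 61.3, 64.9, 64.4, 72.4 and 67.5 CPM in WT and 58.9, 55.8, 49.9, 46.7 and 54.8 CPM in 5XFAD without overlap (log2FC −0.31 ± 0.0692, FDR 0.00215). NX females gave −0.15 (FDR 0.288), with 59.6 to 66.2 CPM in WT and 47.5 to 61.0 CPM in 5XFAD, and −0.19 (FDR 0.117) without F WT NX 1 and F 5XFAD NX 4. In males, Tfeb was at 79.4, 88, 79.3, 113 and 94.2 CPM in WT NX and 91.3, 87.1, 99.4, 52.9 and 48.5 CPM in 5XFAD NX. M 5XFAD NX 4 and M 5XFAD NX 5 held the lowest values of all males, and the log2FC of −0.25 (FDR 0.476) became 0.04 without them. CIH males gave 0.19 (FDR 0.229), with the sign turned (−0.20) when library size alone was used for scaling.

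Bhlhe40 (chromosome 6, 108660629 to 108666925) was the factor with the largest difference between genotypes in each comparison. In CIH females, Bhlhe40 was at 4.81, 4.5, 7.39, 5.09 and 5.65 CPM in WT and at 107, 98.1, 95.4, 84.5 and 114 CPM in 5XFAD. In NX males, Bhlhe40 was at 3.7, 4.9, 1.6, 4.18 and 5.03 CPM in WT and at 88.6, 82.1, 97.3, 91.3 and 76.4 CPM in 5XFAD. In both comparisons the genotypes did not overlap. In CIH males, Bhlhe40 was at 1.96, 2.61, 4.39, 6.1 and 4.78 CPM in WT and at 88.9, 84.1, 70.2, 70.2 and 108 CPM in 5XFAD. These differences were log2FC 4.18 ± 0.129, FDR 5.55e-11 in CIH females, log2FC 4.51 ± 0.261, FDR 2.11e-07 in NX males and log2FC 4.44 ± 0.252, FDR 7.46e-09 in CIH males, or 18.2, 22.8 and 21.7 times the WT level. In NX females, Bhlhe40 was at 33.2, 3.67, 6.36 and 4.35 CPM in WT and at 126, 141, 90.6, 4.86 and 108 CPM in 5XFAD. F WT NX 1 was thus above all other WT libraries of either sex, and F 5XFAD NX 4 was within the WT range and below every other 5XFAD library. With both, Bhlhe40 missed the threshold (log2FC 2.96 ± 0.917, FDR 0.057), although it passed in 4 of 7 alternatives that kept both (DESeq2, the likelihood ratio test, no filter and all 4 groups in one fit; FDR 0.00338 to 0.0336), and without both it gave log2FC 4.57 with FDR 2.04e-06. In NX males the difference was 4.56 without M 5XFAD NX 4 and M 5XFAD NX 5. F WT NX 1 and F 5XFAD NX 4 also had more neutrophil marker signal than the rest of their groups, at 240.2 CPM in F WT NX 1 against 42.5 to 75.2 CPM and 248 CPM in F 5XFAD NX 4 against 10.8 to 62.5 CPM, and the part of this in the Bhlhe40 values was not tested.

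Bhlhe41 (chromosome 6, 145858243 to 145865558), the close relative of Bhlhe40, was expressed in all groups and showed a smaller difference. In CIH females, Bhlhe41 was at 251, 213, 206, 265 and 240.1 CPM in WT and 327, 360.2, 367, 340.1 and 369.9 CPM in 5XFAD. In CIH males, Bhlhe41 was at 187, 106, 161, 135 and 102 CPM in WT and 266, 244, 244, 219 and 287 CPM in 5XFAD. Both were without overlap (log2FC 0.59 ± 0.0642, FDR 5.97e-06; log2FC 0.90 ± 0.156, FDR 0.000299). In NX males, Bhlhe41 was at 161, 173, 172, 174 and 162 CPM in WT and 231, 241, 255, 187 and 216 CPM in 5XFAD, again separate (log2FC 0.44 ± 0.105, FDR 0.0113; log2FC 0.54, FDR 0.000145 without M 5XFAD NX 4 and M 5XFAD NX 5), a call that was lost with library size alone (log2FC 0.24, FDR 0.0835). In NX females, Bhlhe41 was at 257, 262, 263 and 276 CPM in WT and 401, 347, 374, 182 and 389 CPM in 5XFAD, where F 5XFAD NX 4 alone fell below WT (log2FC 0.37 ± 0.171, FDR 0.159; log2FC 0.48, FDR 0.00113 without F WT NX 1 and F 5XFAD NX 4). The pair therefore differed in its WT level. In WT females the means after NX and CIH were 45.3 and 41.8 FPKM for Bhlhe41 and 3.94 and 1.91 FPKM for Bhlhe40. F WT NX 1 raised the 3.94. In WT males they were 24.8 and 20.2 FPKM for Bhlhe41 and 0.818 and 0.827 FPKM for Bhlhe40.

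**Figure D3:**
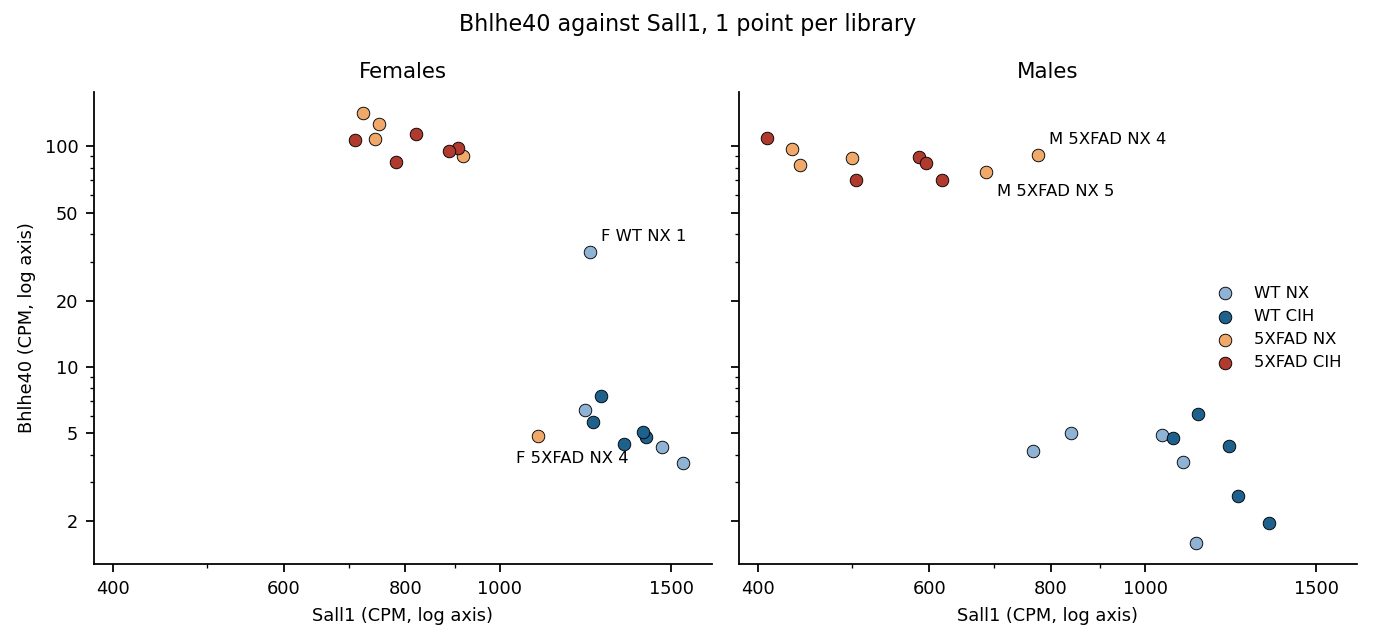
Bhlhe40 against Sall1 (CPM, both axes on a log scale), 1 point per library, for females and males, with the 4 libraries that stand apart named. WT libraries lie at high Sall1 and low Bhlhe40 and 5XFAD libraries at the opposite corner, while F 5XFAD NX 4 (Sall1 1094, Bhlhe40 4.86 CPM) lies beside WT and F WT NX 1 (Bhlhe40 33.2 CPM) between the genotypes.

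Nr1h3 (chromosome 2, 91184061 to 91202834) was the factor with the fewest counts. It held 12 to 103 counts, or 0.924 to 3.91 CPM, per library, and no group of either sex stood apart. Its log2FC in the genotype comparisons was −0.25, −0.35, −0.40 and −0.21, and none passed the test (FDR 0.179 to 0.708), while with library size alone it was called in CIH females (log2FC −0.55, FDR 0.0392). The 95% intervals were −0.80 to 0.10 in CIH females and −1.44 to 0.63 in NX males, and differences within them could not be resolved. Nr1h3 was at −0.26 in NX females and −0.24 in NX males without the libraries that stand apart.

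By comparison, 3 of 9 factors passed an FDR of 0.05 in NX females (Sall1, Tfe3, Mitf), where 13.9% of all genes tested did, and 8 of 9 in CIH females, where 51.9% did. In NX males 5 of 9 passed (Sall1, Mitf, Bhlhe40, Bhlhe41, Tfe3; 17.8% of all genes), and in CIH males 5 of 9 passed (Sall1, Irf8, Bhlhe40, Bhlhe41, Tfe3; 49.0% of all genes). Without F WT NX 1 and F 5XFAD NX 4 the count in NX females was 6, while 45.1% of all genes tested passed. Without M 5XFAD NX 4 and M 5XFAD NX 5 that in NX males was 6, while 33.5% did. Libraries of WT and 5XFAD did not overlap for 2 factors in NX females (14.8% of all genes; Sall1 and Tfe3, both of which overlapped as FPKM through F 5XFAD NX 4), 7 in CIH females (36.9%), 4 in NX males (16.0%) and 5 in CIH males (36.2%). The median log2FC of the 9 factors was 0.15, 0.16, 0.21 and 0.19, against −0.02, −0.02, 0.02 and −0.06 for all genes. When library size alone was used for scaling, the median of all genes moved to −0.17, −0.21, −0.16 and −0.43 in these 4 comparisons, and relative to it Runx1 kept a positive value of 0.13 to 0.20.

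**Figure D4:**
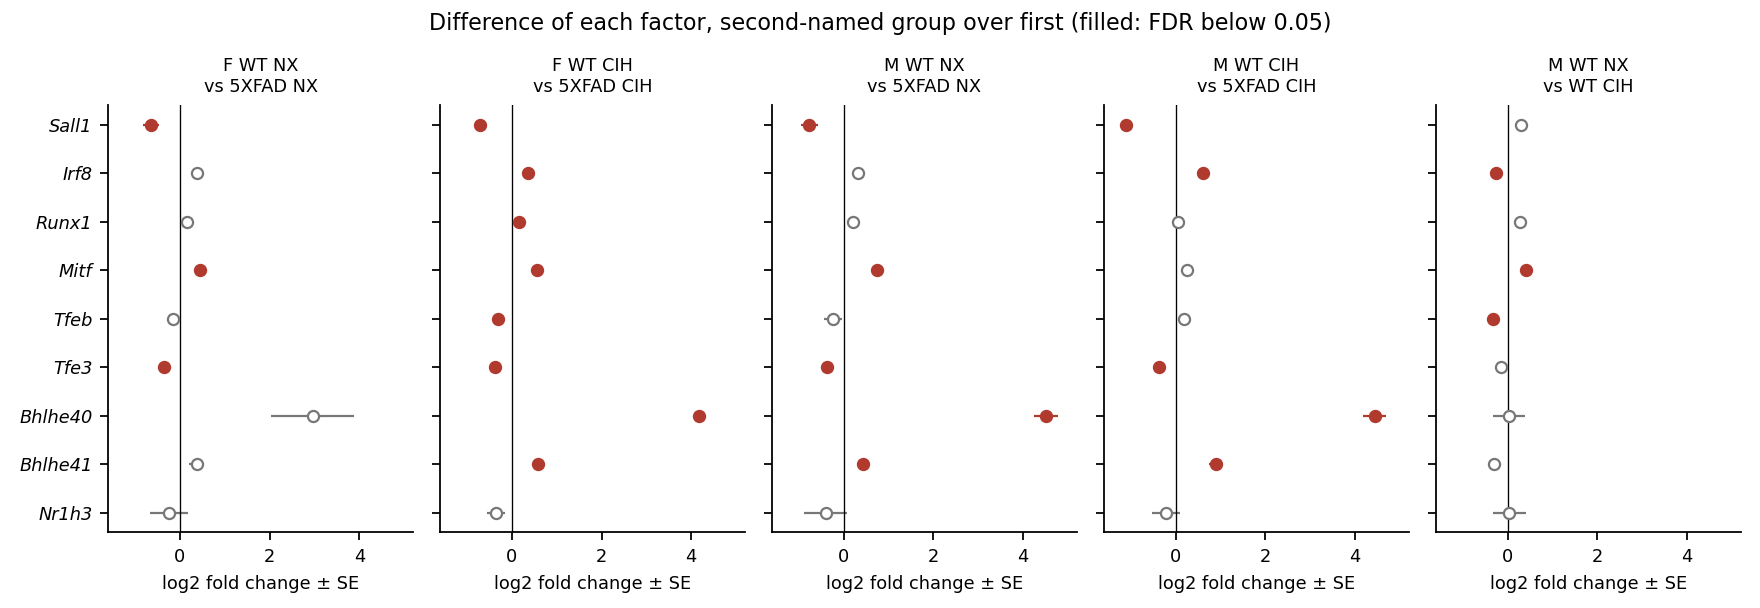
Log2FC ± SE (x axis) of the 9 factors in the 4 genotype comparisons and in male WT NX vs WT CIH; filled points passed an FDR of 0.05. Bhlhe40 lies at 4.18 to 4.51 in 3 genotype comparisons and at 2.96 with a wide error in NX females, and the remaining differences lie between −1.11 and 0.90.

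The effect of CIH was tested within each sex and genotype. In WT males 3 of 9 factors passed (28.6% of all genes), Mitf being higher after CIH (log2FC 0.41 ± 0.107, FDR 0.0097) and Irf8 and Tfeb lower (log2FC −0.25 ± 0.0839, FDR 0.0369; log2FC −0.33 ± 0.105, FDR 0.0274). Mitf was at 38.8, 40.9, 43.1, 38.9 and 34.2 CPM after NX and 59.3, 45.4, 59.8, 54.6 and 44.6 CPM after CIH, the only factor here without overlap (17.2% of all genes). Irf8 was at 669, 758, 726, 699 and 766 CPM after NX and 725, 629, 602, 582 and 543 CPM after CIH, with M WT CIH 1 inside the NX range. Summed neutrophil markers were at 234 to 1240.0 CPM in WT NX and 113 to 331 CPM in WT CIH males, 6 of 9 being lower after CIH. Of the other lists, 3 of 5 monocyte, 3 of 8 border macrophage, 5 of 10 microglial and 1 of 3 tested lymphocyte markers were called lower and 0 higher. Of 7 astrocyte markers tested 1 was called higher, as was 1 of 8 oligodendrocyte markers, with 0 lower. Of neuron and endothelial markers 0 were called. The part of these markers in the values here was not tested. Sall1 (log2FC 0.29 ± 0.11, FDR 0.0604), Runx1 (log2FC 0.28 ± 0.105, FDR 0.0566) and Bhlhe41 (log2FC −0.30 ± 0.138, FDR 0.118) missed the threshold. Scaling by library size alone changed the calls to Mitf, Sall1 (0.38, FDR 0.0141) and Runx1 (0.37, FDR 0.0122), all higher, while Irf8 (−0.15, FDR 0.144) and Tfeb (−0.23, FDR 0.102) were lost. Of 7 alternatives, 4 called Sall1, 4 called Runx1 and 4 lost Irf8. The slope of log2 CPM on gene length was −0.008 to 0.099 in WT CIH against −0.044 to 0.037 in WT NX males, and removal of this trend left Irf8 (log2FC −0.40, FDR 0.007) and Tfeb (−0.42, FDR 0.0157) called, ended the call for Mitf (0.30, FDR 0.0567), and added Tfe3 (−0.37, FDR 0.0149) and Bhlhe41 (−0.43, FDR 0.0461). With all 4 male groups in one edgeR fit, 0 factors were called (Mitf FDR 0.0589), as were 0% of all genes. The Irf8 call was lost in 7 of 10 and the Tfeb call in 4 of 10 fits that left out 1 library. The count of factors called fell to 1 without M WT CIH 2, M WT CIH 4 or M WT NX 5. Of all genes, 24.1%, 21.9% and 22.6% passed in these fits.

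In WT females, 5XFAD females and 5XFAD males, CIH gave 0 of 9 factors at an FDR of 0.05 with edgeR's quasi-likelihood test, 0 at an unadjusted p under 0.05, and 0 with DESeq2 or the likelihood ratio test; 0% of all genes passed, and 3.87%, 3.22% and 3.30% had an unadjusted p under 0.05. The log2FC of the factors other than Bhlhe40 lay between −0.14 and 0.15 in WT females, −0.08 and 0.08 in 5XFAD females and −0.15 and 0.23 in 5XFAD males. For Sall1 the 95% intervals of the CIH difference were −0.17 to 0.17, −0.39 to 0.29 and −0.48 to 0.35. Bhlhe40 gave −1.09 in WT females, which rested on F WT NX 1 and became 0.23 without it. The interaction of genotype and treatment, which asks whether the genotype difference depended on CIH, gave 0 of 9 factors in either sex at an FDR of 0.05 (0% of all genes). In females 0 and in males 2 of 9 had an unadjusted p under 0.05, against 3.78% and 24.4% of all genes, the 2 being Mitf (−0.51) and Bhlhe41 (0.45, unadjusted p = 0.0307, FDR 0.169, edgeR). DESeq2 and the likelihood ratio test called 0 of 9 as well, while over all genes of the male interaction they called 1017 and 248 against 0 (and 1754 without a filter on low counts).

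Relatives of the 9 factors were followed through a list of 19 genes. Here and for the lists that follow, 4 values given for a gene are its log2FC (5XFAD over WT) in NX females, CIH females, NX males and CIH males, in that order. With TMM scaling and all libraries, 13.9%, 51.9%, 17.8% and 49.0% of all genes passed in these comparisons. In WT males after CIH 28.6% did, and the counts of each list stand beside these shares. Of the relatives tested in NX females, 3 of 16 were higher and 2 lower in 5XFAD, and in CIH females 7 and 6 of 17. In NX males the counts were 4 and 2 of 17, and in CIH males 7 and 2 of 16. Rxrg, a retinoid X receptor and partner of LXR, was higher in all 4 (2.07 (FDR 0.0161), 2.31 (FDR 4.22e-06), 2.47 (FDR 7.96e-05) and 2.72 (FDR 7.7e-07)), and so was Irf7, the interferon-induced regulator of type I interferon genes (1.57 (FDR 0.0309), 1.44 (FDR 0.00119), 1.36 (FDR 0.00647) and 1.95 (FDR 6.85e-06)). Irf9, a subunit of the interferon-activated complex ISGF3, was higher by 0.53, 0.37, 0.49 and 0.30. Irf4, the closest relative of Irf8, went the other way from it, with −1.48 (FDR 4.7e-05) in CIH females, −1.22 (FDR 0.00149) in NX males and −1.75 (FDR 3.29e-06) in CIH males, and Sall2 was lower by −0.52, −0.51, −0.52 and −0.76. Runx2 and Runx3, relatives of Runx1, were higher in the CIH comparisons (1.94 (FDR 1.6e-05) and 1.36 (FDR 0.000204) in females, 1.40 (FDR 0.00663) and 0.95 (FDR 0.0251) in males). The remaining calls were smaller, namely Rxrb (−0.34 and −0.39 in females), Irf3 (−0.33), Irf5 (−0.29), Irf2 (−0.22) and Cbfb (0.18) in CIH females, Rxra in CIH females and both male comparisons (0.24, 0.33 and 0.39) and Nr1h2 in CIH males (0.34). In WT males, CIH gave 0 higher and 2 lower of 18, Nr1h2 (−0.39 (FDR 0.0062)) and Rxrb (−0.37 (FDR 0.0112)). With library size alone as scaling, the counts turned to 4 higher and 9 lower in CIH females, 2 and 6 in NX males and 3 and 9 in CIH males. The NX female counts were 6 and 5 without F WT NX 1 and F 5XFAD NX 4. The median log2FC of the relatives was 0.01, −0.09, −0.08 and 0.08 in the 4 genotype comparisons.

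Lysosomal genes of the CLEAR network, the known targets of Mitf, Tfeb and Tfe3, were called higher in 5XFAD more often than lower in each genotype comparison. Of 41 tested, 14 were higher and 2 lower in NX females, 34 and 3 in CIH females, 26 and 1 in NX males and 32 and 3 in CIH males, with medians of 0.69, 0.77, 0.72 and 0.68. Without the libraries that stand apart, the counts were 34 and 3 in NX females (26 and 2 with DESeq2 on all libraries) and 31 and 2 in NX males. In CIH females, NX males and CIH males the largest differences were those of Gpnmb, a lysosomal glycoprotein (9.48 (FDR 2.73e-10), 8.52 (FDR 3.11e-08) and 9.36 (FDR 3.92e-09)), and of Atp6v0d2, a subunit of the proton pump (8.20 (FDR 4.4e-10), 7.14 (FDR 1.42e-06) and 7.00 (FDR 3.85e-09)), with mean WT levels of at most 1.45 CPM for Gpnmb and 0.229 CPM for Atp6v0d2 in those comparisons. In NX females they were those of Rragd, a GTPase of the mTORC1 pathway (3.20 (FDR 0.0193)), and Ctsd, a lysosomal protease (1.70 (FDR 0.036)). Sgsh, a heparan sulfatase, was lower throughout (−1.42, −1.49, −1.41 and −1.55), Ctsf was lower in females (−0.32 and −0.47), and Flcn was lower in CIH males (−0.59). In WT males, CIH gave 3 higher and 16 lower of 40, led by Fnip1 (0.65 (FDR 0.00131)), Fnip2 (0.53 (FDR 0.000276)), Naglu (−0.77 (FDR 0.000377)) and Ctsz (−0.68 (FDR 0.000272)), with a median of −0.20.

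Of 10 tested regulators of MiT/TFE factors, such as the kinase complex mTORC1, the phosphatase calcineurin and the folliculin complex, 0 were higher and 1 lower in NX females, 2 and 4 in CIH females, 1 and 1 in NX males and 1 and 6 in CIH males. Ywhag, a 14-3-3 protein, was higher in CIH females, NX males and CIH males (0.35, 0.33 and 0.35). Lower were Ppp3ca, a calcineurin subunit (−0.40, −0.38, −0.39 and −0.24), Flcn in both CIH comparisons (−0.40 and −0.59) and Ppp3cb in CIH males (−0.48). In WT males, CIH gave 4 higher and 0 lower, among them Fnip1 and Flcn (0.33). Without the libraries that stand apart, the counts were 2 and 3 in NX females and 1 and 4 in NX males. With library size alone they were 0 and 4 in NX males and 0 and 9 in CIH males. With the length trend removed they were 2 and 1 in WT males after CIH. The median log2FC of this list was −0.09, −0.14, −0.05 and −0.27 in the genotype comparisons.

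LXR target genes were called more often higher than lower although Nr1h3 itself was not called with TMM scaling. Of 17 tested, 6 were higher and 1 lower in NX females, 10 and 4 in CIH females, 9 and 1 in NX males and 10 and 4 in CIH males, with medians of 0.79, 1.21, 1.07 and 1.18. Ch25h, which makes the LXR ligand 25-hydroxycholesterol, gave 4.37 (FDR 0.0175), 5.02 (FDR 1.57e-10), 5.57 (FDR 1.54e-06) and 5.69 (FDR 1.71e-08). Lpl, a lipoprotein lipase, gave 3.04 (FDR 0.0347), 4.97 (FDR 6.69e-11), 5.47 (FDR 1.85e-10) and 5.44 (FDR 7.88e-12), and Acaca, of fatty acid synthesis, gave 3.78 (FDR 0.0162), 3.99 (FDR 1.47e-09), 3.85 (FDR 4.69e-07) and 3.58 (FDR 3.38e-10). Those lower were Lpcat3 (−0.55, −0.63, −0.79 and −0.44) and, in CIH females and CIH males, Mylip (−0.32 and −0.46), the cholesterol transporter Abca1 (−0.28 and −1.09) and the phagocytic receptor Mertk (−0.26 and −0.51). In WT males, CIH gave 3 higher and 4 lower, with Abca1 (0.71) and Mertk (0.36) higher and Pltp (−0.80) and Apoe (−0.74) lower.

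Homeostatic microglial genes, which include known targets of Sall1, were called lower in 5XFAD more often than higher in each genotype comparison. Of 15 tested, 0 were higher and 7 lower in NX females, 1 and 12 in CIH females, 0 and 9 in NX males and 3 and 8 in CIH males, with medians of −0.42, −0.47, −0.48 and −0.37. The purinergic receptor P2ry12 gave −0.85 (FDR 0.0306), −1.07 (FDR 8.37e-08), −1.22 (FDR 1.6e-05) and −1.03 (FDR 3.37e-07), Tmem119 gave −1.03, −1.22, −1.26 and −0.58, and P2ry13 gave −0.78 in CIH males. Cst3 (0.91) and Fcrls (0.58) were among the 3 higher in CIH males. Hypoxia-responsive genes, a class to which Bhlhe40 and Bhlhe41 are known to belong, gave 2 higher and 0 lower of 18 in NX females, 14 and 1 in CIH females, 11 and 0 in NX males and 11 and 2 in CIH males. Egln3, the oxygen-sensing prolyl hydroxylase, led them (4.02 (FDR 0.0297), 5.38 (FDR 2.18e-11), 5.70 (FDR 5.28e-07) and 5.34 (FDR 2.25e-11)), with Slc2a3 (0.96), Vegfa (2.54), Pgk1 (1.92) and Aldoa (2.27) next in the respective comparisons. Those lower were Ddit4 (−0.76) in CIH females, and Kdm3a (−0.51) and Hk2 (−0.37) in CIH males. In WT males, CIH gave 5 higher and 3 lower hypoxia-responsive genes, among them Ddit4 (1.05) and Vegfa (0.74) higher and Aldoa (−0.60) and Eno1 (−0.57) lower, and 1 higher (Tgfbr1, 0.39) and 9 lower homeostatic genes, led by Cst3 (−0.73) and Slc2a5 (−0.60). Without F WT NX 1 and F 5XFAD NX 4, the NX female counts were 1 higher and 9 lower for homeostatic, 13 and 1 for hypoxia-responsive and 11 and 2 for LXR target genes. Without M 5XFAD NX 4 and M 5XFAD NX 5, the NX male counts for LXR target genes were 10 and 4. With DESeq2 on all libraries, 8 hypoxia-responsive genes were higher and 1 lower in NX females. With the length trend removed, 2 were higher and 2 lower in WT males after CIH. Disease-associated microglia genes, a published activation list, were higher for 17 of 22 in NX females (22 without F WT NX 1 and F 5XFAD NX 4). They were higher for 22 of 22 in the other 3 genotype comparisons, and lower for 16 of 22 in WT males after CIH. The paper reports genes of this class among the genotype differences of these same data, so these counts are a description.

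**Figure D5:**
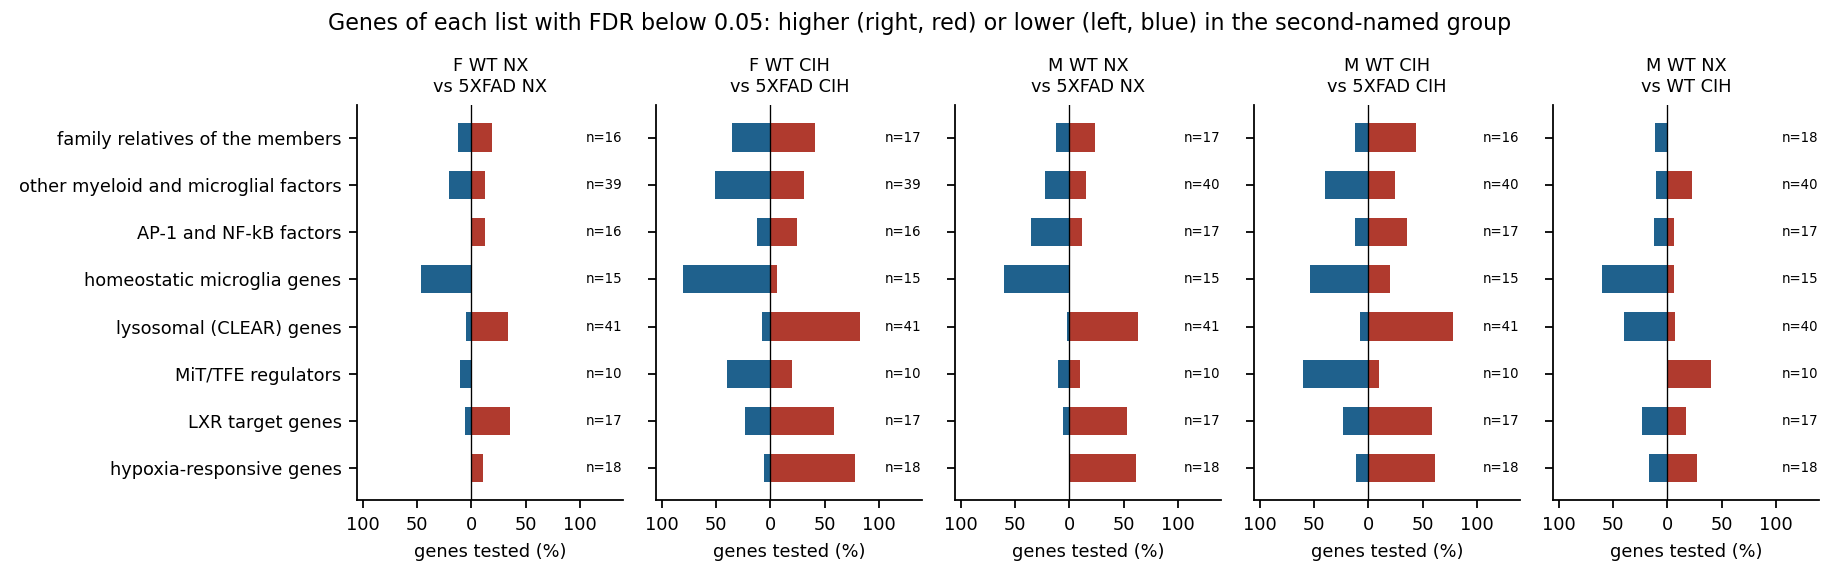
Share of the tested genes of each list (x axis, percent; n, genes tested) that passed an FDR of 0.05 and were higher (right) or lower (left) in the second-named group, for the 4 genotype comparisons and male WT NX vs WT CIH. Lysosomal genes lie mostly to the right in the genotype comparisons (34 of 41 in CIH females) and to the left in male WT NX vs WT CIH (16 of 40).

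Among 40 other myeloid and microglial factors, Hif1a, the oxygen-regulated factor, was the highest in all 4 genotype comparisons (2.34 (FDR 0.0232), 2.57 (FDR 3.82e-11), 2.31 (FDR 1.46e-07) and 2.05 (FDR 1.98e-09)). The largest falls were those of Cebpd in females and NX males (−1.09, −1.22 and −1.17), Maf in females and CIH males (−0.96, −1.11 and −1.14), Klf2 in NX males (−1.08) and Zfhx3 in CIH males (−1.10). In total 5 were higher and 8 lower of 39 in NX females, 12 and 20 of 39 in CIH females, 6 and 9 of 40 in NX males and 10 and 16 of 40 in CIH males. Without the libraries that stand apart, the counts were 10 and 15 in NX females and 7 and 15 in NX males. With library size alone they were 7 and 22 in CIH females, 3 and 13 in NX males and 3 and 23 in CIH males. In WT males, CIH gave 9 higher and 4 lower of 40, with Spi1, which encodes PU.1, the lowest (−0.79 (FDR 0.000539)) before Ppard (−0.50), and Zeb2 the highest (0.70 (FDR 0.000343)) before Smad4 (0.57). The WT male counts were 3 and 4 with the length trend removed and 14 and 3 with library size alone. The list of AP-1 and NF-kB factors also holds Egr2 and Nr4a1, which belong to neither family. Of its genes, 2 were higher and 0 lower of 16 in NX females and 4 and 2 of 16 in CIH females. The counts were 2 and 6 of 17 in NX males and 6 and 2 of 17 in CIH males. With library size alone these turned to 2 and 4 in CIH females and 3 and 8 in CIH males. They were 4 and 1 in NX females without F WT NX 1 and F 5XFAD NX 4. Egr2 (1.34, 1.33, 1.65 and 1.63) and Atf3 (1.36, 0.99, 0.69 and 1.67) were higher in all 4, Rel (−0.70 and −1.23) and Fosl2 (−0.42 and −0.47) were lower in the CIH comparisons, and Nr4a1 (−1.43) and Fosb (−1.14) were lower in NX males. Atf3 and Nr4a1 also belong to the genes that tissue dissociation induces, 4 of 13 of which were higher in NX females, 2 in CIH females, 1 in NX males (with 5 lower) and 4 in CIH males. With library size alone, 1 was higher and 0 lower in NX females, 0 and 8 in NX males and 1 and 4 in CIH males. The part of dissociation was not tested.

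After the mean of each group was subtracted, log2 CPM of the factors was related within libraries (Pearson r, 19 female and 20 male libraries, given as a description). Of 36 pairs, 18 had the same sign in both sexes, and the 3 whose lower r was largest in size are given first. Mitf and Runx1 (r 0.61 in females and 0.64 in males) and Irf8 and Bhlhe41 (0.96 and 0.56) varied together, and Sall1 and Bhlhe40 varied in opposite directions (−0.76 and −0.42). Without the libraries that stand apart (17 female and 18 male libraries left), these pairs were at 0.43 and 0.52, 0.72 and 0.46, and −0.68 and −0.56. Sall1 and Tfeb were at 0.20 in females and −0.84 in males, and at 0.21 and −0.70 without those libraries. Irf8 and Tfe3 were at −0.07 and 0.82, and at 0.48 and 0.80 without them. These values share each library's depth and composition, and those over all libraries, here and in the next sentences, rest in part on the libraries that stand apart. By the lower of the female and male r over 9818 genes, Sall1 was most like Pld1, Cep68 and Dock10 (0.904, 0.895 and 0.895), Irf8 most like Os9, Tmem184b and Cln3 (0.87, 0.87 and 0.86) and Runx1 most like Irs2 and Inpp5d (0.86 and 0.82). Mitf was most like Ppm1e, Nfya and Kcnj2 (0.79, 0.79 and 0.78), Tfeb most like Ppp1r8, Rit1 and Idh3g (0.72, 0.69 and 0.67) and Tfe3 most like Fhod1, Slc7a8 and Fmnl1 (0.80, 0.74 and 0.71). Bhlhe40 was most like Efr3b, Stard4 and Serbp1 (0.85, 0.83 and 0.79) and Bhlhe41 most like Srrd, Gpr146 and Rin2 (0.77, 0.75 and 0.75). Nr1h3 was most like Emb, S100a8 and S100a9 (0.50, 0.48 and 0.47), the latter both neutrophil granule genes.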

How the data were processed

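CD11b+ cells of 39 mice were profiled by RNA-seq, with separate tables for females and males. The authors deposited raw counts and FPKM per gene; reads were aligned with HISAT2 to GRCm38 (mm10) per the labels. Counts were tested with edgeR 4.0.16 in R 4.3.3 (TMM scaling, quasi-likelihood F test, Benjamini-Hochberg FDR over all genes tested), keeping genes above 1 CPM in at least 3 libraries of a comparison. Changed genes had an FDR under 0.05. Each pair of groups was fitted alone, and the interaction over the 4 groups of a sex. FPKM were used to compare levels between genes. For Sall1 and Tfe3 they also set F 5XFAD NX 4 beside WT NX without TMM scaling. With 13457293 to 25906121 counts per library, 1 CPM corresponds to 13 to 26 reads, which sets the counting error of low genes. The scripts were tested on simulated data. Alternatives were DESeq2 1.42.0, the likelihood ratio test, library size alone, no filter, all 4 groups in one fit, a replicate block and leaving out each library, and, chosen after seeing the data, removal of each library's length trend and leaving out F WT NX 1 with F 5XFAD NX 4 or M 5XFAD NX 4 with M 5XFAD NX 5. The text names all 9 factors, every relative that passed, and of each other list the 2 passing genes with the largest rise and fall, apart from a few genes that are not reported here. Libraries that stand apart, marker lists and the promoters shown were singled out after their values were seen. Genes most like a factor had the 3 highest values of the lower of the female and male Pearson r (log2 CPM with a prior count of 1 after subtracting group means, mean CPM of at least 5). The factors and gene lists were chosen with earlier results of these data known. The labels describe separate samples, and p-values measure the spread between them.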

Additional observations from a re-analysis of the deposited data

Results flagged for a closer look

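In 7 of 72 sets of values (9 factors in 8 groups), 1 library lay far from the others of its group by Dixon's test, which chance alone does in about 1 of 20 groups; 5 of the 7 were in the library labelled F 5XFAD NX 4. There, Irf8 was at 491 CPM against 780 to 875 CPM in the other 4 libraries, Mitf at 48.2 CPM against 80.8 to 87.0 CPM, Bhlhe40 at 4.86 CPM against 90.6 to 141 CPM and Bhlhe41 at 182 CPM against 347 to 401 CPM. Nr1h3 was higher there, at 3.31 CPM against 1.34 to 1.69 CPM. In F WT NX 1, Irf8 was at 549 CPM against 598 to 606 CPM. In M WT NX 3, Bhlhe40 was at 1.60 CPM against 3.70 to 5.03 CPM. Of the 18 interaction terms of the factors, 0 passed an FDR of 0.05 (edgeR).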

How the results depend on the processing

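For 48 log2FC (the 45 of the genotype comparisons and of WT males NX vs CIH, and 3 others the text names), leaving out 1 library gave 490 values, of which 423 kept direction and side of the threshold, 46 lost the call, 11 gained it and 10 turned sign; the other alternatives gave 354 values (292, 28, 26 and 8). For the remaining 42 treatment and interaction results, none of them called, 61 of 563 and 27 of 303 values turned sign and 0 crossed the threshold. The count of factors changed in NX females (3; 13.9% of all genes) was 5 with DESeq2 (24.3%), 6 with all 4 groups in one fit (32%), 6 without F WT NX 1 and F 5XFAD NX 4 (45.1%), 0 with library size alone (9.03%) and 0 to 6 when 1 library was left out, reaching 6 without F 5XFAD NX 4 (44%), 1 without F WT NX 1 (6.52%) and 0 otherwise (0.301% to 3.27%). In NX males (5, 17.8%) it was 4 to 6 when 1 library was left out (14.1% to 19%). In WT males NX vs CIH (3, 28.6%) it was 5 with DESeq2 (33.3%) and 0 with all 4 groups in one fit (0%). Leaving out 1 library there gave 1 to 4 factors (21.9% to 31.9%). The sample titles name no pairing by replicate number. Correlations of same-numbered libraries ran from −0.494 to 0.351, which cannot show whether samples shared a litter or a day. With the replicate block, 0 factors were called in NX females, 2 in NX males and 7 in CIH females (without Runx1), while 0.0416%, 8.83% and 52.3% of all genes were.
With library size alone, which took the median of all genes to −0.43 in CIH males, Runx1 was at −0.007 in NX females, −0.032 in CIH females and −0.307 in CIH males, and Mitf at −0.117 and Tfeb at −0.196 in CIH males. Tfeb in NX males was 0.042 without M 5XFAD NX 4 and M 5XFAD NX 5. With the length trend removed, Runx1 was −0.003 and Bhlhe40 −0.004 in WT males NX vs CIH. Leaving out 1 library turned Nr1h3 in NX females (−0.644 to 0.14), Runx1 in CIH males (−0.005 to 0.133), and in WT males Bhlhe40 (−0.179 to 0.205) and Nr1h3 (−0.148 to 0.288). It also turned Bhlhe40 in WT females NX vs CIH (−1.393 to 0.228). The cause of these changes was not tested. Nr1h3 had 12 to 103 counts per library and CVs of 9.68% to 54.7% within groups.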
